A study of Bos taurus with 134 samples.

Results

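DNA methylation was examined at the distal ends of the bovine autosomes in single oocytes. The distal windows were those of chromosomes 1 to 29 that were at least 5000 and under 150000 bp long and ended within 3 Mb of the highest coordinate listed for their chromosome, a rule that used positions and lengths and no methylation value. It gave 3272 of the 41322 windows of the series, with 55 to 168 windows per chromosome and a median of 113. The rest of the same chromosomes held 26577 windows of the same lengths. A further 1252 windows in the last 3 Mb were shorter than 5000 bp and 12 were of 150000 bp or more, and these were not members.

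Metaphase II (MII) oocytes were collected from 4 Holstein heifers of 15 to 18 months of age, and each library held the DNA of 1 oocyte. The 26 oocytes of the IVM group were aspirated as immature cumulus-oocyte complexes from small follicles of heifers given GnRH but no FSH, and then matured in culture for 22 h. The 20 oocytes of the IVO group were collected mature from large follicles of the same heifers on another date, and were chosen for cumulus expansion. For this collection the heifers had been superovulated with 180 mg of FSH and given GnRH. IVM and IVO thus differed in ovarian stimulation, follicle size, selection and date of collection as well as in the site of maturation. The labels do not name the heifer of an oocyte. The oocytes of a group may therefore share heifers, so that a group counts here as 1 sample and groups were not compared by a test. Standard deviations over oocytes are given as a description. All IVO libraries were numbered 19 to 38, whereas IVM libraries were numbered 1 to 18 (18 oocytes) and 39 to 46 (8 oocytes), so IVM values are also given for each set of library numbers. What the numbers mark is not stated.

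Cattle autosomes are acrocentric, with the centromere next to the low-coordinate end, so the distal windows lie on the side of the long-arm telomere. Subtelomeric DNA of mammals is commonly rich in genes, in CpG sites and in recombination. Growing oocytes acquire methylation mainly across transcribed gene bodies by de novo DNA methyltransferases, whose expression differs between species. This leaves a mosaic of hypermethylated and hypomethylated domains, which is already in place when an oocyte resumes meiosis.

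The name of the window table gives a set number of CpG sites per window, in which case shorter windows would hold CpG sites, or covered CpG sites, at higher density. The density itself was not measured. The distal windows were short, with a median length of 16763 bp compared to 37578 bp in the rest. Windows of any length in the last 3 Mb made up 11.4% of all autosomal windows but covered only 3.49% of their length. As the methylation level rose with window length in the rest of the chromosomes, from 54.3% at 5000 to 10000 bp to 62.1% at 80000 to 150000 bp (mean of both groups), comparisons with the rest were made at matched length unless stated otherwise: the mean of the rest was weighted to the lengths of the distal windows in 5 length classes.

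A window was used when at least 5 oocytes of each group had a value, which held for 2794 of the 3272 distal windows (85.4%) and for 93.4% of the rest. The 478 windows left out were not described further. A distal window was measured in a median of 13 IVM and 8 IVO oocytes, against 16 and 11 in the rest. Single oocytes had a value in 14.5 to 77.2% of the distal windows, with a median of 60.9% in IVM and 49.9% in IVO. The number of CpG calls behind each value is unknown, so no counting interval is given.

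Distal windows were less methylated in IVM than in IVO, over all oocytes by an amount smaller than the spread between them. Per oocyte, the mean of the distal windows was lowest at 42.9%, had a median of 50.3% and was highest at 77.0% in IVM. In IVO the lowest, median and highest oocytes were at 50.2, 55.0 and 72.9%. The groups overlapped over most of their range, although the median of IVM lay close to the lowest IVO oocyte. The mean of the 26 IVM oocytes was 53.6% ± 8.68 (SD), and that of the 20 IVO oocytes 56.8% ± 5.84 (SD). Averaged by window, IVM stood at 50.5% and IVO at 53.5%, and IVM minus IVO was -3.01 percentage points. IVM was the lower group in 1662 of the 2794 distal windows (59.5%), compared to 56.4% of the rest at matched length.

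The highest oocytes were those with the fewest windows measured. Among oocytes with a value in fewer than 20000 windows of the series, the distal mean ran from 60.7 to 77.0% in 6 IVM oocytes and from 53.1 to 72.9% in 6 IVO oocytes. With at least 20000 windows it ran from 42.9 to 55.8% in 20 IVM oocytes and from 50.2 to 59.9% in 14 IVO oocytes, with means of 49.3% ± 2.54 (SD, n = 20) and 54.2% ± 2.91 (SD, n = 14). These 2 ranges overlapped between 50.2 and 55.8%, and the means of these oocytes lay farther apart than either SD. The same held for the matched rest of these oocytes, at 54.6% ± 1.88 in IVM and 58.1% ± 2.18 in IVO (SD). It was thus not particular to the distal windows. Coverage still differed, with a mean of 27642 windows in these IVM oocytes and 25560 in these IVO oocytes. As a description over oocytes, Pearson's r between the number of windows measured and the distal mean was -0.92 in IVM (n = 26, Spearman's rho -0.55) and -0.86 in IVO (n = 20, Spearman's rho -0.82). When the 2 oocytes most remote from the median coverage were left out, r was -0.87 in IVM and -0.79 in IVO. An oocyte's distal windows stood at exactly 0 or 100% in 28.0 to 72.0% of cases in IVM and 31.7 to 74.1% in IVO. The part of coverage in the level of single oocytes was not tested.

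Within single oocytes, the distal windows were less methylated than the rest of the same chromosomes. In IVM the distal minus rest difference at matched length was lowest at -7.55, had a median of -4.64 and was highest at 3.30 percentage points, and it was below 0 in 24 of 26 oocytes. In IVO it was lowest at -6.36, had a median of -3.78 and was highest at 0.48 percentage points, and it was below 0 in 19 of 20 oocytes. All 3 oocytes above 0 had fewer than 20000 windows. The mean was -4.21 ± 2.50 (SD) over IVM oocytes and -3.44 ± 1.82 (SD) over IVO oocytes. In oocytes with at least 20000 windows all 20 IVM and all 14 IVO oocytes were below 0, with means of -5.26 ± 1.11 and -3.93 ± 1.66 (SD). In oocytes with fewer windows the means were nearer to 0, at -0.72 ± 2.73 (SD) over 6 IVM oocytes and -2.30 ± 1.80 (SD) over 6 IVO oocytes. The difference thus also moved with coverage: Pearson's r with the number of windows measured was -0.76 in IVM (n = 26, Spearman's rho -0.54) and -0.51 in IVO (n = 20, Spearman's rho -0.54), and -0.82 and -0.49 without the same 2 oocytes of each group. Over all oocytes, the distal ends were lower than the rest by more than 1 SD over oocytes in each group, whereas the 2 groups' differences overlapped.

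**Figure D1:**
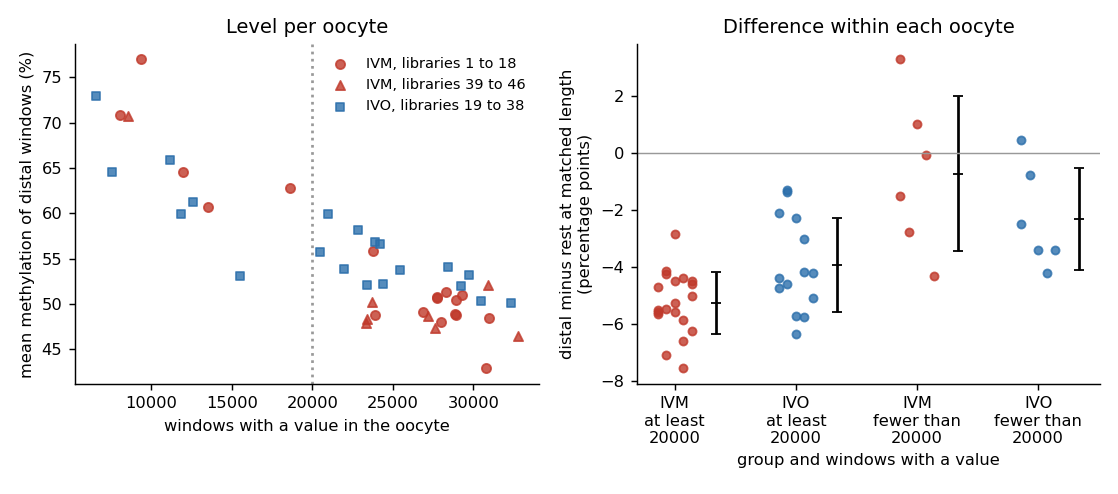
Left, the mean methylation of the distal windows (%) in each oocyte against the number of windows with a value in that oocyte; circles and triangles are IVM oocytes of library numbers 1 to 18 and 39 to 46, squares are IVO oocytes, and the dotted line is at 20000 windows. Right, the distal minus rest difference at matched length (percentage points) in each oocyte, split by group and at 20000 windows, with the mean and SD as a bar; the 34 oocytes with at least 20000 windows sit below 0, and the 3 oocytes above 0 are among those with fewer windows.

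Averaged by window, the distal level of 50.5% in IVM stood against 55.5% in the rest at matched length, a difference of -5.07 percentage points. In IVO the levels were 53.5 and 57.8%, a difference of -4.35 percentage points. The difference was -4.76 in IVM libraries 1 to 18 and -5.64 in IVM libraries 39 to 46, so it was present in each set of library numbers. It was also found in each length class, from -2.18 percentage points at 80000 to 150000 bp, where only 97 distal windows were used, to -5.27 at 40000 to 80000 bp (433 windows, mean of both groups). Against the first 3 Mb of the same chromosomes, the centromere-proximal side, the difference averaged by window was -4.84 in IVM and -4.58 in IVO. Taken per oocyte, that difference was -3.07 ± 2.98 (SD) in IVM, with 22 of 26 oocytes below 0, and -3.02 ± 3.40 (SD) in IVO, with 16 of 20 below 0, about the size of the SD. Against the adjoining stretch of 3 to 6 Mb from the end the difference averaged by window was -2.83 in IVM and -2.44 in IVO. Per oocyte it was -2.80 ± 2.09 (SD) in IVM and -2.89 ± 1.83 (SD) in IVO, so the 2 comparisons were alike in size by this average.

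The IVM minus IVO difference was slightly larger in distal windows than elsewhere. It was -3.01 percentage points in the distal windows and -2.29 in the rest at matched length, a gap of -0.72 percentage points. Per oocyte, the distal minus rest values that carry this gap had SDs of 2.50 in IVM and 1.82 in IVO, so the gap was smaller than the spread between oocytes. The gap was -0.44 with IVM libraries 1 to 18 alone and -1.66 with IVM libraries 39 to 46 alone. Against the parts most like the distal windows the gap was smaller. At matched length IVM minus IVO was -2.75 percentage points in the first 3 Mb, a gap of -0.26. At 3 to 6 Mb from the end it was -2.62, a gap of -0.39.

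The lower mean at the distal ends came with a different distribution of window levels. By the mean of both groups, 295 distal windows (10.6%) were below 20% methylated, compared to 7.60% of the rest at matched length and 4.52% of the rest without matching. Intermediate windows of 20 to 80% numbered 1915 (68.5%), and 584 windows (20.9%) were at 80% or more, compared to 24.5% of the rest at matched length. The step from 20 to 30% was the most common, with 445 distal windows (15.9%) against 10.4% of the matched rest. Of the low windows, 174 were below 20% in both IVM and IVO, as were 482 of the high windows at 80% or more. Levels were shared between the groups, with Pearson's r of 0.87 over 2794 distal windows between the IVM and IVO means (0.86 over the rest), and of 0.85 over 1475 distal windows between the 2 sets of IVM libraries. These r values describe windows, which are not replicates, and all libraries share the same reference windows.

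**Figure D2:**
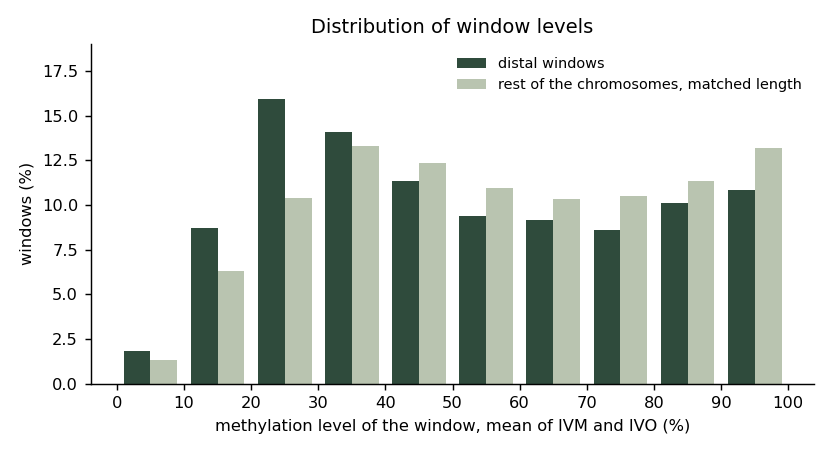
Share of windows (%) in steps of 10% of the methylation level, taken as the mean of IVM and IVO, for the 2794 distal windows (dark bars) and the rest of the same chromosomes weighted to the same lengths (light bars). Distal windows exceed the rest in each step below 40% and fall short of it in each step from 40% upward.

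Methylation was lowest in the last 0.2 Mb and did not climb evenly away from the end. Levels by distance are given without length matching unless stated. The 197 windows of the last 0.2 Mb were at 42.2% in IVM and 45.4% in IVO, and they were lower than the other distal windows of the same chromosome in 24 of 29 chromosomes. Between 0.2 and 3 Mb the mean of both groups lay between 50.7 and 55.3%, with its highest value at 1 to 1.5 Mb. The rule's limit at 3 Mb fell on a local step: windows just inside it, at 2.5 to 3 Mb, were at 50.7%, and windows just outside it, at 3 to 3.5 Mb, at 58.1%. This step was not the edge of the low stretch, since windows of 3.5 to 4 Mb were back at 49.0%. At 10 to 20 Mb the level was 58.6%, or 56.8% at the lengths of the distal windows. The last usable window of a chromosome was at 10.8% in the lowest chromosome, had a median of 44.7% and reached 92.6%, with 5 of 29 below 20% and 2 at 80% or more. A low outermost step was also seen on the other side of the chromosomes, where the first 0.2 Mb stood at 48.0% (104 windows of 25 chromosomes). The steps that followed on that side, from 0.2 to 3 Mb, stood at 53.3 to 62.4%.

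**Figure D3:**
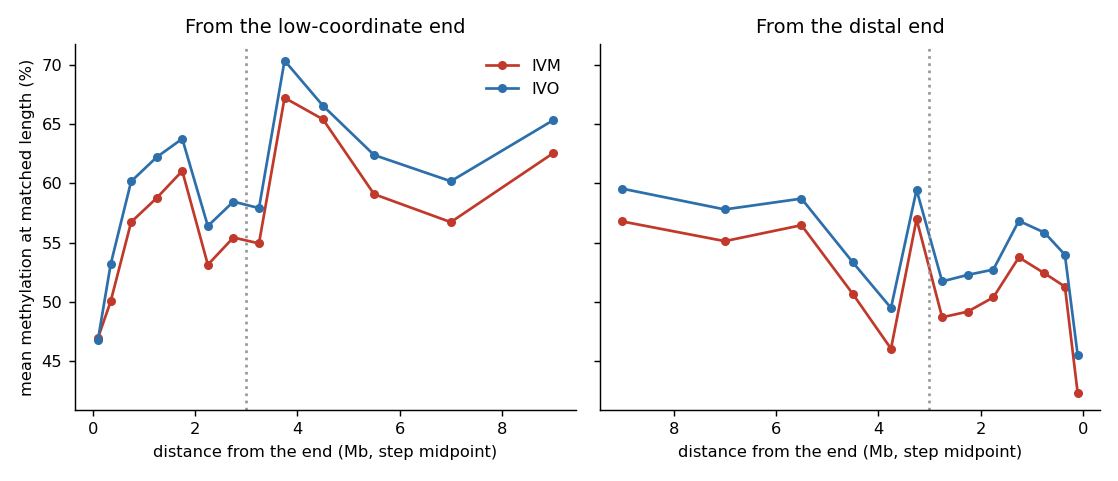
Mean methylation (%) at the lengths of the distal windows against the distance from the end of the chromosome (Mb), for windows counted from the low-coordinate end (left) and from the distal end (right, end at the right margin); red is IVM, blue is IVO, points are steps of distance and the dotted lines are at 3 Mb. IVO lies above IVM in each step but the first 0.2 Mb from the low-coordinate end, and both groups fall at the outermost step of either end.

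Chromosomes differed more from each other than the groups did. The distal minus rest difference at matched length was below 0 in 21 of 29 chromosomes and above 0 in 8 (mean of both groups), from -16.4 to 8.52 percentage points, with a mean of -4.04 ± 7.05 (SD over 29 chromosomes). IVM and IVO ordered the chromosomes alike, with Pearson's r of 0.96 over 29 chromosomes, given as a description since both groups share the windows and the reference. The difference was below 0 in IVM libraries 1 to 18, IVM libraries 39 to 46 and IVO alike in 20 chromosomes and above 0 in all 3 sets in 7. IVM was lower than IVO in the distal windows of 27 of 29 chromosomes and in the matched rest of all 29. Weighted equally, the chromosomes gave -4.31 percentage points in IVM and -3.77 in IVO, and leaving out any 1 chromosome kept the difference between -5.45 and -4.55 in IVM and between -4.71 and -3.92 in IVO.

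**Figure D4:**
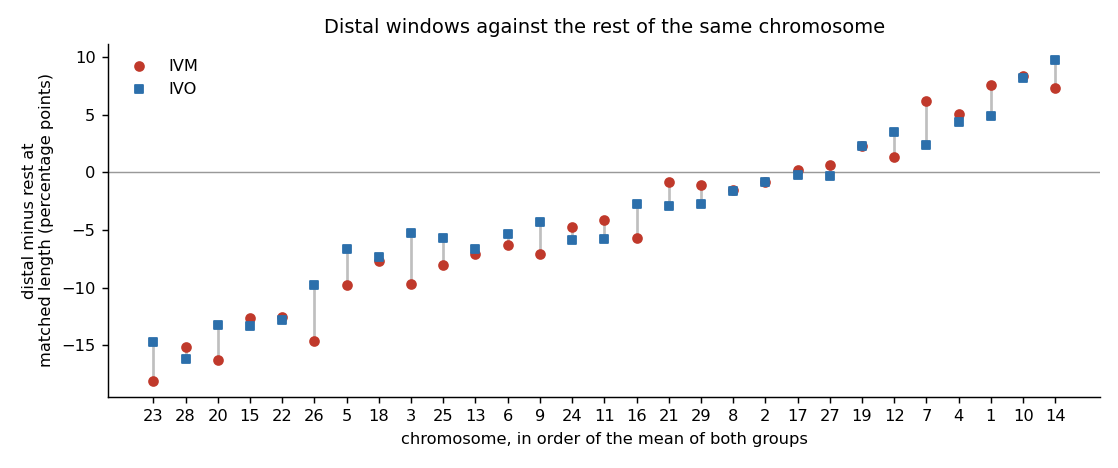
Distal minus rest difference at matched length (percentage points) for each autosome, ordered by the mean of both groups; circles are IVM, squares are IVO, and grey lines join the groups of a chromosome. Values run from below -14 in both groups on chromosomes 23 and 28 to above 7 in both groups on chromosome 14, and the groups lie on opposite sides of 0 only on chromosomes 17 and 27.

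The chromosomes whose distal ends were lowest relative to their matched rest were 23, 28 and 20. On chromosome 23, 129 used windows had a mean of 41.9% against 58.3% in the matched rest, a difference of -16.4 percentage points. The IVM oocytes of chromosome 23 ran from 34.8 to 80.4% with a median of 41.2%, and the IVO oocytes from 35.9 to 83.3% with a median of 47.8%. The used windows of chromosome 23 had the shortest median length of any chromosome, 12261 bp, and shares below 20% were taken without length matching. Low windows were frequent there, with 31 of 129 (24.0%) below 20%, the highest share of any chromosome. Yet they alternated with a methylated stretch, since the steps at 0.5 to 1 and 1.5 to 2 Mb from the end stood at 33.6 and 31.4% and the step at 1 to 1.5 Mb between them at 74.5%.

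Chromosome 20 had a low stretch of several steps. Its 110 windows had a mean of 40.0%, the lowest of the 29 chromosomes, against 54.8% in the matched rest. IVM oocytes ran from 23.9 to 81.9% with a median of 39.2%, and IVO oocytes from 29.9 to 74.9% with a median of 47.3%. The 4 steps from 1 to 3 Mb lay between 33.2 and 35.3%, and the 2 outer steps at 50.9 and 51.4%, so here the outermost windows were the more methylated ones. The low stretch was not confined to the distal windows, with 31.2% at 3 to 3.5 Mb and 38.8% at 3.5 to 4 Mb. Chromosome 28 (68 windows) had a mean of 47.2% against 62.8%, with 31.8 to 34.9% in the outer 3 steps and 71.2% at 1.5 to 2 Mb.

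The chromosomes whose distal ends were highest relative to their matched rest were 14, 10 and 1. Chromosome 14 stood at 63.0% in 52 windows against 54.5% in the matched rest, 8.52 percentage points higher. Its outer 3 steps were at 68.2 to 75.2%, whereas the step at 2 to 2.5 Mb, with 3 windows, was at 32.8%. Chromosome 10 was at 67.6% (77 windows) against 59.3%, and each of its 6 steps lay between 63.2 and 71.8%. Its IVM oocytes ran from 55.1 to 90.6% with a median of 66.9%, and its IVO oocytes from 60.9 to 92.8% with a median of 68.6%. Beyond 3 Mb the level of chromosome 10 dropped to 41.7% in the next step. Chromosome 1 was at 63.8% (54 windows) against 57.6%, and its step at 2 to 2.5 Mb reached 91.8%.

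**Figure D5:**
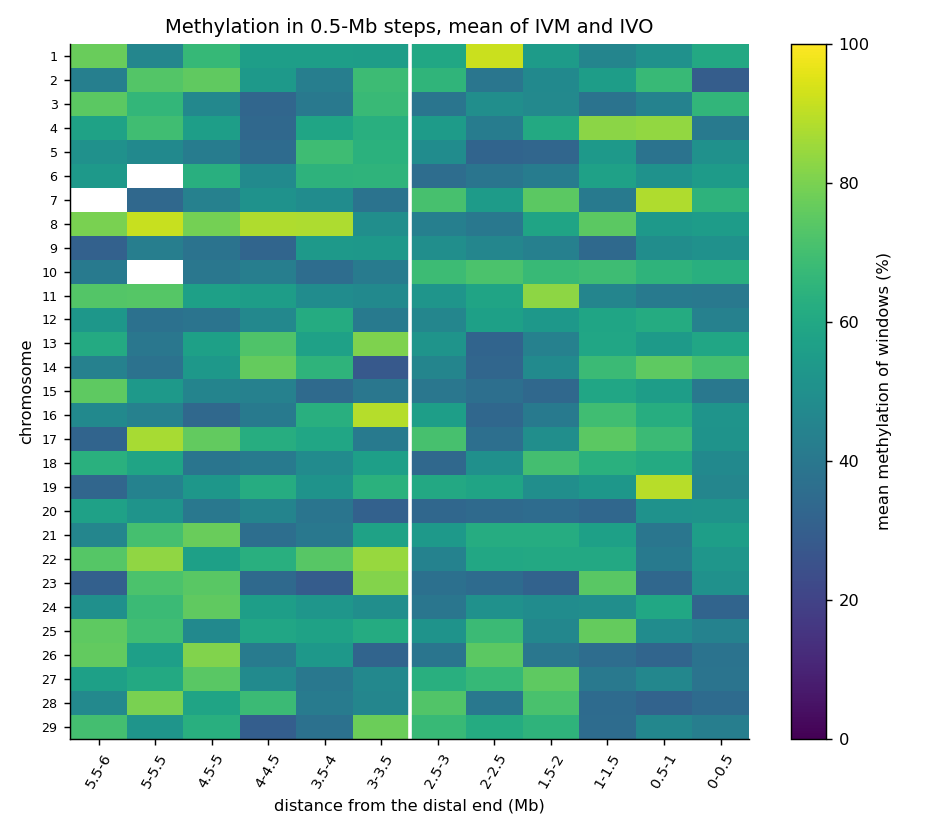
Mean methylation of windows (%, colour, mean of IVM and IVO) in 0.5-Mb steps from the distal end, with 1 row for each chromosome, the distal end at the right and a white line at 3 Mb; white cells hold no usable window. Within the last 3 Mb rows differ in pattern, such as the 4 adjoining low steps of chromosome 20, the even steps of chromosome 10 and the single bright step of chromosome 1. On chromosome 20 the low steps go on beyond the white line, and on chromosome 10 the level drops there. Steps with few windows are less certain.

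Neighbouring windows resembled each other, which gave stretches of like level. Pearson's r between adjacent used distal windows was 0.53 in IVM and 0.48 in IVO (2765 pairs), and 0.50 between a window in IVM and the next window in IVO. Windows at 80% or more formed 272 runs, of which 146 were single windows and 28 held at least 5 windows, 187 together. The longest run held 16 windows over 574 kb (chr1:155747429-156321758, UMD3.1.1) at 91.8% in IVM and 91.7% in IVO. Its single windows lay between 82.7 and 99.6% in IVM and between 81.7 and 99.4% in IVO. Windows below 20% formed 227 runs, of which 176 were single windows and 2 held at least 5. The longer of these held 6 windows over 116 kb on chromosome 15 (chr15:85026427-85142567, UMD3.1.1), at 16.6% in IVM and 16.3% in IVO. Its outer edge lay 0.14 Mb from the end of the chromosome. The other, of 5 windows, was on chromosome 23 (chr23:51651344-51728606, UMD3.1.1), at 15.7% in IVM and 11.4% in IVO.

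Large differences between the groups at single distal windows were found in both directions. At least 20 percentage points lower in IVM were 297 of 2794 distal windows (10.6%), where 7.9 percent of all windows of the series and 10.1% of the matched rest passed this size. At least 20 percentage points higher in IVM were 131 (4.69%), against 3.8 percent of all windows and 5.46% of the matched rest. The distal shares were thus close to those of other windows of the same length. With at least 5 oocytes in each set of IVM libraries, 134 of the 297 could be read in both, and 71 (53.0%) were lower by 20 percentage points in both, compared to 535 of 1103 (48.5%) in the rest. Of the 131, 42 could be read in both sets and 17 (40.5%) were higher by 20 percentage points in both, compared to 199 of 480 (41.5%) in the rest. These shares were close to those of the rest, without length matching. The IVO oocytes are common to these readings. The SD over oocytes of a single distal window had a median of 29.3 percentage points in IVM (2361 windows) and 31.5 in IVO (1285 windows), larger than the size used here.

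With the windows classed in IVM libraries 39 to 46, the difference between IVM libraries 1 to 18 and IVO was -4.06 percentage points in 196 distal windows below 20%, -4.10 in 962 windows of 20 to 80% and -0.59 in 317 windows of 80% or more. In the rest of the chromosomes, without length matching, the same classes gave -2.63, -2.94 and -0.78. Per oocyte, the distal windows below 20% were at 28.4% ± 13.8 (SD, n = 18) in these IVM libraries and 29.9% ± 7.96 (SD, n = 20) in IVO, means that lay closer together than those by window. The intermediate ones were at 51.9% ± 10.7 (SD, n = 18) and 55.2% ± 7.46 (SD, n = 20), and the highly methylated ones at 85.2% ± 1.34 and 85.9% ± 3.03. Each difference was smaller than these SDs.

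The windows with the largest differences are given as a description, since their values chose them, among 1475 windows with at least 5 oocytes in both IVM sets and in IVO. Coordinates are of UMD3.1.1. Lower in IVM was chr21:70495280-70509105, where 13 IVM oocytes ran from 0 to 40.0% with a median of 11.8% and 5 IVO oocytes from 20.0 to 100% with a median of 50.0%. At chr20:71435565-71471234, 13 IVM oocytes had a median of 14.3% and 13 IVO oocytes a median of 100%, and both groups ran from 0 to 100%. This window overlaps gene bodies listed for NKD2, an inhibitor of WNT signalling, and ENSBTAG00000046181. In IVM 11 of the 13 oocytes were below 50%, and in IVO 4 of 13. At chr11:106878571-106903463, 12 IVM oocytes ran from 0 to 12.2% with a median of 2.94%, and 7 IVO oocytes from 0 to 100% with a median of 50.0%. In the NKD2 window 8 of the 13 IVO oocytes stood at 100%, and in all 3 windows the IVO oocytes covered a wide range.

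Higher in IVM was chr22:59154520-59176496, where 16 IVM oocytes ran from 50.0 to 100% with a median of 95.9% and 9 IVO oocytes from 0 to 100% with a median of 50.0%. At chr11:106103656-106126107, 18 IVM oocytes ran from 7.45 to 100% with a median of 50.0%, and 5 IVO oocytes from 0 to 15.4% with a median of 0%. At chr10:102224227-102246792, 17 IVM oocytes had a median of 91.7% and 10 IVO oocytes a median of 25.0%, both running from 0 to 100%. The groups overlapped in each of these windows. Of the 6 windows with the largest differences, the NKD2 window had 13 IVO oocytes and the other 5 had 5 to 10.

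Other windows had low or high means in both groups. Among 1255 distal windows with at least 10 oocytes of each group, 25 were below 20% and 219 at 80% or more in both groups. The lowest level was at chr2:136823776-136860362, 188 kb from the end of chromosome 2, where 19 IVM oocytes ran from 0 to 28.6% and 11 IVO oocytes from 0 to 25.0%. Next came chr12:90770115-90775937 at 7.00% in IVM and 6.60% in IVO, where 9 of 12 IVM and 8 of 11 IVO oocytes were at 0, and single oocytes reached 66.7% in IVM and 50.0% in IVO. The third was chr23:52301858-52330654, at 10.1% in IVM (n = 16, highest oocyte 56.2%) and 6.49% in IVO (n = 11, highest oocyte 21.7%). All 3 lay within 0.4 Mb of their chromosome's end. Over distal windows below 20%, the SD over oocytes had a median of 17.6 percentage points in IVM (203 windows) and 25.6 in IVO (50 windows). Low means thus held single oocytes of higher level. The windows were not the same in IVM and IVO, so these medians do not compare the groups.

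The highest level was at chr1:155880207-155893737, inside the long run described above, where 10 of 11 oocytes in each group were at 100%. At chr4:118143401-118179915, 20 of 24 IVM oocytes and all 18 IVO oocytes were at 100%, and no oocyte was below 75.0%. At chr22:60511320-60525938 the means were 98.6% in IVM (n = 13) and 98.3% in IVO (n = 10). No listed gene overlapped these 6 windows in the part of the study's gene listings used here, which says nothing of other genes there.

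The distal end of chromosome 29 holds PHLDA2, an imprinted gene that restrains placental growth and lies in the cluster controlled by the maternally methylated KCNQ1OT1 region. The window that overlaps its gene body (chr29:49303888-49331868, UMD3.1.1) ran from 0 to 100% in both groups. The median was 73.0% in 14 IVM oocytes and 88.2% in 8 IVO oocytes. The means were 62.9% ± 38.8 and 65.1% ± 41.9 (SD), so IVM and IVO differed by far less than the spread between oocytes. In IVM 2 oocytes stood at 0 and 3 at 100%, and in IVO 1 stood at 0 and 2 at 100%.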

How the data were processed

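Single-cell bisulfite libraries of 26 IVM and 20 IVO oocytes were used, out of 134 libraries of the series. Reads had been trimmed by the authors (Trim Galore 0.4.4), mapped with Bismark 0.18.2 against UMD3.1.1 (single-end, non-directional) and deduplicated. The authors also left out libraries of low mapping, low coverage or suspected somatic DNA, and summarised CpG calls in SeqMonk. The deposited values are the percent of methylated CpG calls per window and oocyte, without the number of calls, so depth per window is unknown. Its name gives 20 CpGs per window, and the methods give another tile size. Deposited RNA values carry no gene names and were not used.

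Group means were taken per window over oocytes, for windows with at least 5 oocytes of each group, and then over windows. Rest means were weighted to the distal windows' lengths in classes bounded at 5000, 10000, 20000, 40000, 80000 and 150000 bp. Per-oocyte means used every window an oocyte had, so they differ from means by window. Equal values between pairs of oocytes were sought in shared distal windows where the first-listed oocyte was neither fully methylated nor fully unmethylated. No pair had more than 20.2% equal values in these windows, so no library was counted more than once. The members and lists were chosen with earlier results of these data known. Named windows were the 3 largest differences in each direction with the same sign in both sets of IVM libraries, the 3 lowest and 3 highest levels with at least 10 oocytes of each group, and the PHLDA2 window. Named chromosomes were the 3 highest and 3 lowest of the distal minus rest difference. Gene names came from the part of the study's promoter and gene body listings held here, and no sequence is shown, since no UMD3.1.1 genome was used. Promoters were held for some chromosomes only and gene bodies in order of their difference, so naming may favour genes of large difference. The code was tested on simulated data. Alternatives covered the minimum of oocytes, libraries, coverage, averaging, window length, distance and length matching. Computations ran in Python 3.11.15 with pandas 2.3.3, numpy 2.4.6, matplotlib 3.10.9 and scipy 1.17.1.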

Additional observations from a re-analysis of the deposited data

How the results depend on the processing

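The 4 differences kept their direction under each alternative run. The distal IVM minus IVO difference ranged from -5.53 to -2.54 percentage points over 17 alternatives, and the gap to the rest from -2.03 to -0.44 over 19. Over 18 alternatives the distal minus rest difference of IVM lay between -8.27 and -4.05, and that of IVO between -6.24 and -2.96. With medians over windows it was -8.27 in IVM and -6.24 in IVO, and without length matching it was -6.20 in IVO, shifts larger than the SD over oocytes.

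Counts and shares depended on the windows and libraries used. The shares of all windows and of the rest were not taken at these settings. The values below therefore do not show whether distal windows differed from other windows there. With at least 10 oocytes of each group, 102 of 1255 distal windows (8.13%) were at least 20 percentage points lower in IVM, 28 (2.23%) were higher and 3.82% were below 20%. With at least 3 oocytes, 12.6% were below 20%. With IVM libraries 39 to 46 alone, 242 of 1498 (16.2%) were lower, 80 (5.34%) were higher and 8.34% were below 20%. With oocytes of at least 20000 windows also required, 78 of 1398 (5.58%) were higher and 8.58% were below 20%. With oocytes of at least 20000 windows in either set, 11.8% were below 20%, and in windows of 10000 to 100000 bp, 8.56%. In the last 1 Mb, 108 of 989 (10.9%) were lower and 49 (4.95%) higher, shares near those of all distal windows, and 19.2% were at 80% or more.

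Averages per oocyte first, the coverage limit applied to each set of IVM libraries and leaving out single chromosomes were chosen after seeing the data. Each IVM oocyte set against the mean of the windows it had gives no distal minus rest value within a group, and medians, length weights and equal chromosome weights were run for the differences only. No paired analysis was possible because the labels name no heifer and no test was made. The unknown number of calls per window limits the values of single windows.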

Other observations

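Windows shorter than 5000 bp in the last 3 Mb of the autosomes were at 47.8% in IVM and 49.2% in IVO (231 usable of 1252), and short windows of the rest of the autosomes at 44.3 and 45.2% (955 usable of 4445). At this length the distal end was thus the higher side, without length matching inside the class. The SD over oocytes of the short distal windows was 9.85 percentage points in IVM and 6.10 in IVO, larger than these differences. Of the short distal windows 22.5% were below 20% methylated and 26.0% at 80% or more, compared to 19.4 and 16.2% in the rest. The 12 windows of 150000 bp or more in the last 3 Mb were at 54.4% in IVM and 58.1% in IVO, against 62.1 and 64.8% in 4220 such windows elsewhere.

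The X chromosome, which is not acrocentric in cattle, had a highly methylated distal end. Its 63 usable windows of 5000 to 150000 bp in the last 3 Mb were at 63.6% in IVM and 66.7% in IVO, and 971 windows in the rest of X at 56.2 and 59.0%. At matched length the end of X was 8.57 percentage points above the rest of X in the mean of both groups. The SD over oocytes of the level at the end of X was 7.88 percentage points in IVM and 7.54 in IVO. High and low windows were both frequent there, with 50.8% at 80% or more and 14.3% below 20%, against 21.0 and 2.47% in the rest of X. These shares were taken without length matching, at median lengths of 32253 bp at the end and 62465 bp in the rest of X.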
